A study of Mus musculus with 11 samples.

Results

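The transcripts described here are those of 9 genes of the Hedgehog pathway, namely *Gli1*, *Gli2*, *Gli3*, *Ptch1*, *Smo*, *Hhip*, *Sufu*, *Boc* and *Gas1*. They were chosen by name as core components and regulators of the pathway, among 55536 genes with a row in each count file. Earlier results of these data were known at that choice. All 9 passed the filter on low counts, which kept 20307 genes. RNA was sequenced from epidermal cells of the dorsal skin of male C57Bl6/N mice that carry *CD4Cre* and the *R26-tdT* reporter, in 11 libraries with the cells of 2 mice each. There were 3 libraries of tdT+CD49f+CD34+ cells, 3 of tdTnegCD49f+CD34+ cells, 3 of tdT+CD49f+CD34+SCA-1+ cells and 2 of tdTnegCD49f+CD34+SCA-1+ cells. The first pair of populations was sorted as SCA-1neg and is called SCA-1neg below, and the second pair is called SCA-1+. Every replicate 1 came from mice of 29 weeks and every other replicate from mice of 32 weeks. Libraries with the same replicate number were taken to share mice.

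All groups share the Cre driver and the reporter, and no group was treated. Cre under control of *Cd4* sequences marks cells that express or once expressed *Cd4* together with their progeny. T cells are therefore marked too, and the tdT label does not report whether a cell still expresses *Cd4*. CD49f is an integrin of basal epidermal cells, CD34 marks the hair follicle bulge, and SCA-1, encoded by *Ly6a*, marks basal cells of the interfollicular epidermis and the upper follicle.

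Hedgehog ligands bind the receptor PTCH1, which in their absence holds the transmembrane protein SMO inactive. BOC and GAS1 are co-receptors that assist ligand binding, whereas HHIP binds ligand and lowers the amount that is free. Active SMO releases the transcription factors GLI2 and GLI3 from SUFU, their inhibitor, at the primary cilium. *Gli1*, *Ptch1* and *Hhip* are known target genes of the pathway, so that their transcripts are commonly used as its readout, and in skin the pathway is known for its role in the hair follicle and in basal cell carcinoma.

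The libraries held between 17409131 and 46542177 counts on genes. Of the marker lists, all 7 bulge genes were lower and 4 of 6 interfollicular genes were higher in SCA-1+ than in SCA-1neg cells (edgeR, adjusted p under 0.05 and absolute log2 fold change over 1). *Ly6a* ran from 153 to 294 normalized CPM (counts scaled to a common library size of 1000000) in SCA-1+ and from 2.46 to 59.2 in SCA-1neg libraries. *Cd34* ran from 468 to 1130 CPM in the SCA-1neg libraries and stood at 320 and 383 in the tdTneg SCA-1+ libraries. In the 3 tdT+ SCA-1+ libraries it lay between 22.3 and 35.7 CPM. The 7 T cell markers summed to between 500 and 1164 CPM in tdT+ SCA-1+, to 183 and 193 in tdTneg SCA-1+ and to between 26.9 and 111 in SCA-1neg libraries, and all 7 were called higher in SCA-1+ cells. The 6 endothelial markers summed to 1676 and 1789 CPM in the 2 tdTneg SCA-1+ libraries and to between 5.12 and 441 in the others, where 441 was that of the library labelled tdT+ SCA-1neg replicate 2 and the next value was 100. All 4 Langerhans cell markers were called higher in SCA-1+ cells, while 2 of 5 melanocyte, 2 of 5 secondary hair germ and 1 of 8 fibroblast and dermal papilla markers were called lower, and 1 of 4 Merkel cell markers passed the filter and was not called.

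One row of each file lies outside the Ensembl genes. Its level lay from 133 to 307 CPM in 5 of the 6 tdT+ libraries and from 2.54 to 4.89 CPM in the 5 tdTneg libraries. The exception was the library labelled tdT+CD49f+CD34+ replicate 2, with 2.05 CPM, which goes against its label by this measure. By the sum of the T cell markers it stood with its label, at 111 CPM. That sum was 86.7 and 86.5 CPM in tdT+CD49f+CD34+ replicates 1 and 3, and from 26.9 to 38.5 CPM in the tdTnegCD49f+CD34+ libraries. Fold changes of the 9 genes to which this library contributes are given with and without it, as are the counts of genes that do not overlap. Exceptions are *Smo* and *Sufu* within tdT+ cells and, for the difference between populations, all genes but *Gli1* and *Hhip*.

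RefSeq windows from 250 bases before to 50 bases after the start of the gene were at hand for 7 of the 9 genes, all but *Gli1* and *Boc*. They are shown for *Gli2*, whose transcripts fell in SCA-1+ cells, and for *Smo*, whose transcripts were not called in any comparison, to set the start regions of a changed and an uncalled member side by side. Capitals mark CG dinucleotides.
Gli2 (GRCm38.p6, chr1:119053570-119053869, minus strand): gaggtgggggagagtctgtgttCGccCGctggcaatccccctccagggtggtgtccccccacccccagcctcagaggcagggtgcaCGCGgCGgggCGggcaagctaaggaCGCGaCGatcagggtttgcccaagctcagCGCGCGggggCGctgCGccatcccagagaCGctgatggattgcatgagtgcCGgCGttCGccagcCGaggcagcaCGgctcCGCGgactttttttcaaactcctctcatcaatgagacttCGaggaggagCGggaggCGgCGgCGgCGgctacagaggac
Smo (GRCm38.p6, chr6:29735247-29735546, plus strand): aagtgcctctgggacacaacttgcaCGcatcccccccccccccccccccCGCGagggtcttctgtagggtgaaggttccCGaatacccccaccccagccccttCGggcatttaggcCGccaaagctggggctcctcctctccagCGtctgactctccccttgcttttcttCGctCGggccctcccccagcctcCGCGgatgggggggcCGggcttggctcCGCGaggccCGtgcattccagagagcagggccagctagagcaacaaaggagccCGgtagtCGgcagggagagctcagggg
The *Gli2* window held 28 CG dinucleotides and the *Smo* window 17, against a median of 7 over 32851 windows of the same length. Over the 7 members the number ran from 12 for *Sufu* to 47 for *Ptch1*. RefSeq and Ensembl can place the start of a gene differently, and the windows of *Ptch1* and *Gli3* lie inside the Ensembl genes whose positions are given with their levels. The core of the GLI binding motif, GACCACCCA on either strand, was in 0 of the 7 windows and in 0.253% of all windows. TATAA on the same strand was also in 0 of the 7 windows, against 17.5% of all windows.

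SCA-1+ cells were compared with SCA-1neg cells as the mean over both tdT states, which asks how the pathway genes differ between the populations. Transcripts of 6 of the 9 genes were lower in SCA-1+ cells and none was higher. These were the transcription factors *Gli1* and *Gli2*, the co-receptors *Gas1* and *Boc*, the receptor *Ptch1* and the inhibitor *Hhip*. A gene was called at a Benjamini-Hochberg adjusted p under 0.05 in edgeR and an absolute log2 fold change over 1, and over all genes tested 6.79% were called lower and 11.6% in either direction. The median log2 fold change was -1.67 over the 9 genes and -0.09 over all genes. SCA-1+ and SCA-1neg libraries did not overlap in 5 of the 9 genes, and in 10.8% of all genes. Without the library labelled tdT+ SCA-1neg replicate 2, the median was -1.71 over the 9 genes and -0.08 over all genes, and 6 of the 9, *Ptch1* added, and 14.1% of all genes did not overlap. The bulge markers moved down with these genes and the T cell and Langerhans cell markers moved up, with the values above, and their part in the result was not tested. In bulk RNA, fewer cells that express a gene and less of its RNA per cell cannot be told apart.

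*Gli1* (ENSMUSG00000025407, chromosome 10 of GRCm38, 127329882 to 127341974) encodes the GLI factor that acts as an activator. It had 100, 100 and 207 normalized CPM in tdT+ and 174, 119 and 203 in tdTneg SCA-1neg libraries (replicates 1 to 3). In SCA-1+ cells it had 9.06, 19.6 and 8.10 CPM in the tdT+ libraries and 28.4 and 62.8 in the tdTneg libraries. Every SCA-1neg library was above every SCA-1+ library, and the tdT+ SCA-1+ libraries were the lowest. *Gli1* fell by 2.67 on the log2 scale (standard error 0.36, edgeR adjusted p = 0.00101). With the library labelled tdT+ SCA-1neg replicate 2 left out, the log2 fold change was -2.76 (edgeR adjusted p = 0.00143).

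*Gli2* (ENSMUSG00000048402, chromosome 1, 118834132 to 119053619), the main activator downstream of SMO, followed the same order. Its levels were 68.1, 44.5 and 104 CPM in tdT+ and 124, 89.6 and 124 CPM in tdTneg SCA-1neg libraries. They were 8.18, 15.7 and 10.5 CPM in tdT+ and 23.3 and 41.0 CPM in tdTneg SCA-1+ libraries. The populations did not overlap, although the lowest SCA-1neg library, which is the one that goes against its label, and the highest SCA-1+ library were close. *Gli2* fell by 2.23 on the log2 scale (standard error 0.28, edgeR adjusted p = 0.000708), and by 2.36 without that library.

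*Gli3* (ENSMUSG00000021318, chromosome 13, 15463235 to 15730026), which is known mainly for its repressor form, differed less. It had 48.8, 57.0 and 61.1 CPM in tdT+ and 98.4, 62.0 and 71.1 CPM in tdTneg SCA-1neg libraries, against 35.6, 19.8 and 32.3 CPM in tdT+ and 34.7 and 44.1 CPM in tdTneg SCA-1+ libraries. The populations did not overlap. The log2 fold change was -0.95 (standard error 0.19, edgeR adjusted p = 0.00679), so that *Gli3* passed the p-value threshold and missed the fold threshold. With the library that goes against its label left out the value was -0.94 (edgeR adjusted p = 0.0138). *Gli3* passed both without tdTnegCD49f+CD34+ replicate 2 (-1.02), tdT+CD49f+CD34+SCA-1+ replicate 1 (-1.03) or tdTnegCD49f+CD34+SCA-1+ replicate 2 (-1.01).

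With the counts divided by exon length, the 3 GLI transcripts summed to between 32.5 and 66.2 normalized CPM per kilobase in SCA-1neg libraries and to between 6.51 and 23.2 in SCA-1+ libraries. *Gli1* was the largest part in each of the 6 SCA-1neg libraries, with shares of the summed level between 55.1% and 65.9%. *Gli3* made up 10.1% to 18.3% there. In SCA-1+ libraries the share of *Gli1* ran from 24.9% to 54.4% and that of *Gli3* from 19.8% to 55.4%. *Gli3* was the largest part in 2 libraries, tdT+ SCA-1+ replicates 1 and 3, with 55.4% and 51.6%, whereas tdT+ SCA-1+ replicate 2 held 24.9%. The share of *Gli2* overlapped between the populations, with 19.9% to 30% and 17.7% to 27.6%. Of the SCA-1neg libraries, the one that goes against its label had the lowest sum, the lowest share of *Gli2* and the highest share of *Gli3*, and the next values were 35 CPM per kilobase, 24% and 16.3%. These shares are a description without a test.

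**Figure D1:**
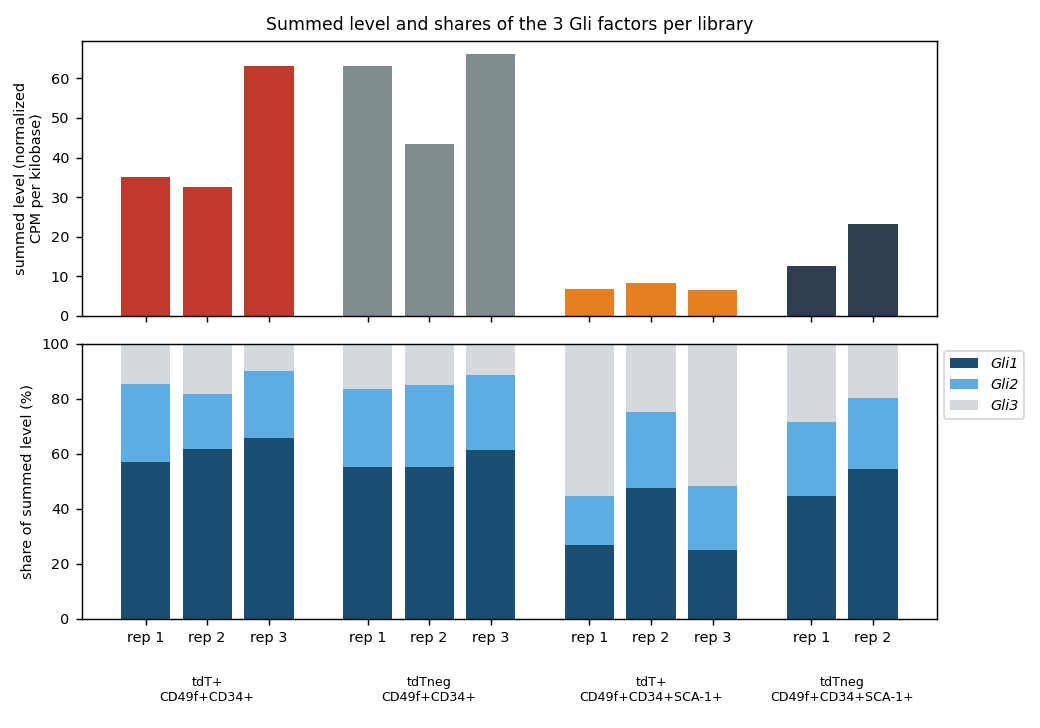
Summed normalized CPM per kilobase of *Gli1*, *Gli2* and *Gli3* (upper panel, bars) and the share of each in that sum in percent (lower panel, stacked bars) for each of the 11 libraries, grouped by population. The sums of the 5 SCA-1+ libraries lie between 6.51 and 23.2, all below the lowest SCA-1neg library at 32.5, and *Gli3* is the largest part only in tdT+ SCA-1+ replicates 1 and 3.

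The co-receptor genes *Gas1* and *Boc* fell in SCA-1+ cells as well. *Gas1* (ENSMUSG00000052957, chromosome 13, 60174405 to 60177365), which encodes a co-receptor anchored to the membrane by a lipid, had 285, 207 and 488 CPM in tdT+ and 496, 423 and 471 CPM in tdTneg SCA-1neg libraries. It had 53.1, 105 and 58.4 CPM in tdT+ and 97.6 and 198 CPM in tdTneg SCA-1+ libraries. The populations were apart, but tdTneg SCA-1+ replicate 2 came close to the library that goes against its label. The log2 fold change was -1.91 (standard error 0.30, edgeR adjusted p = 0.00203), and -2.03 without that library.

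*Boc* (ENSMUSG00000022687, chromosome 16, 44485049 to 44558897), a transmembrane co-receptor, had 177, 222 and 345 CPM in tdT+ and 275, 216 and 311 CPM in tdTneg SCA-1neg libraries. Its levels in SCA-1+ cells were 77.3, 55.7 and 78.8 CPM in tdT+ and 79.3 and 106 CPM in tdTneg libraries. Here the lowest SCA-1neg library, at 177 CPM, lay far above the highest SCA-1+ library. *Boc* fell by 1.67 on the log2 scale (standard error 0.20, edgeR adjusted p = 0.000634), and by 1.71 without the library labelled tdT+ SCA-1neg replicate 2.

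The receptor gene *Ptch1* (ENSMUSG00000021466, chromosome 13, 63508328 to 63573598) had 106, 59.2 and 132 CPM in tdT+ and 122, 93.1 and 158 CPM in tdTneg SCA-1neg libraries. In SCA-1+ libraries it had 43.6, 51.8 and 45.5 CPM with tdT and 55.1 and 72.3 CPM without. The populations overlapped through 1 library of each, the one that goes against its label at 59.2 CPM and tdTneg SCA-1+ replicate 2 at 72.3 CPM. *Ptch1* fell by 1.02 on the log2 scale (standard error 0.22, edgeR adjusted p = 0.00981), just past the fold threshold, and by 1.16 without that library. The call was lost on the fold threshold with DESeq2 and with RLE size factors, where the value rounded to the threshold itself, and with the replicate number as a block (-0.91). The same held in the fits without tdT+CD49f+CD34+ replicate 3 (-0.89), tdTnegCD49f+CD34+ replicate 3 (-0.92), replicate 1 of tdT+CD49f+CD34+ or of tdT+CD49f+CD34+SCA-1+ (both again at the threshold after rounding) or tdTnegCD49f+CD34+SCA-1+ replicate 1 (-0.94).

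*Hhip* (ENSMUSG00000064325, chromosome 8, 79965851 to 80058006) was the least abundant of the 9 genes. It had 20.1, 17 and 36.2 CPM in tdT+ and 11.8, 5.47 and 16.4 CPM in tdTneg SCA-1neg libraries. In tdT+ SCA-1+ cells it had 23, 0 and 1 counts in replicates 1 to 3, or 0.613, 0 and 0.0516 CPM, where 0 counts allow up to 0.172 CPM (3 counts, counting error only). In tdTneg SCA-1+ cells it had 6.49 and 5.19 CPM. The tdT+ SCA-1+ libraries were thus below all others, while the tdTneg libraries of both populations overlapped. The log2 fold change of the mean over tdT was -3.75 (standard error 0.70, edgeR adjusted p = 0.00543), and -3.86 without the library labelled tdT+ SCA-1neg replicate 2. At such counts a fitted fold change depends on how the fit treats counts near 0.

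*Smo* and *Sufu*, which encode the transducer of the signal and the inhibitor of the GLI factors, were not called. *Smo* (ENSMUSG00000001761, chromosome 6, 29735503 to 29761365) ran from 89.5 to 132 CPM with a median of 122 in SCA-1neg and from 98.4 to 151 CPM with a median of 107 in SCA-1+ libraries. *Sufu* (ENSMUSG00000025231, chromosome 19, 46396896 to 46488804) ran from 27.8 to 44 CPM with a median of 41.2 and from 27.7 to 39.9 CPM with a median of 31.6. Both genes overlapped between the populations over most of their range. The log2 fold change of *Smo* was -0.04 (95% confidence interval -0.33 to 0.26, edgeR adjusted p = 0.877) and that of *Sufu* was -0.13 (-0.43 to 0.16, edgeR adjusted p = 0.525). These intervals leave out a change by the fold threshold, but not smaller changes. Without the library that goes against its label the values were -0.09 and -0.20.

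Each group held 1 library from 29-week mice. At 29 weeks the SCA-1+ library was below the SCA-1neg library in 7 of 9 genes with tdT and in 9 of 9 without, as it was in 50.4% and 54% of all genes. The log2 ratio of *Gli1* was -3.46 and -2.62 there. With the 32-week libraries alone, which leave 1 tdTneg SCA-1+ library, 2 genes were called, *Hhip* and *Boc*, where the share of all genes called in either direction was 1.37%. *Gli1* then had a log2 fold change of -2.42 (edgeR adjusted p = 0.0743), *Gli2* of -1.95 (edgeR adjusted p = 0.0726), *Gas1* of -1.63 (edgeR adjusted p = 0.118) and *Ptch1* of -0.89 (edgeR adjusted p = 0.299).

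**Figure D2:**
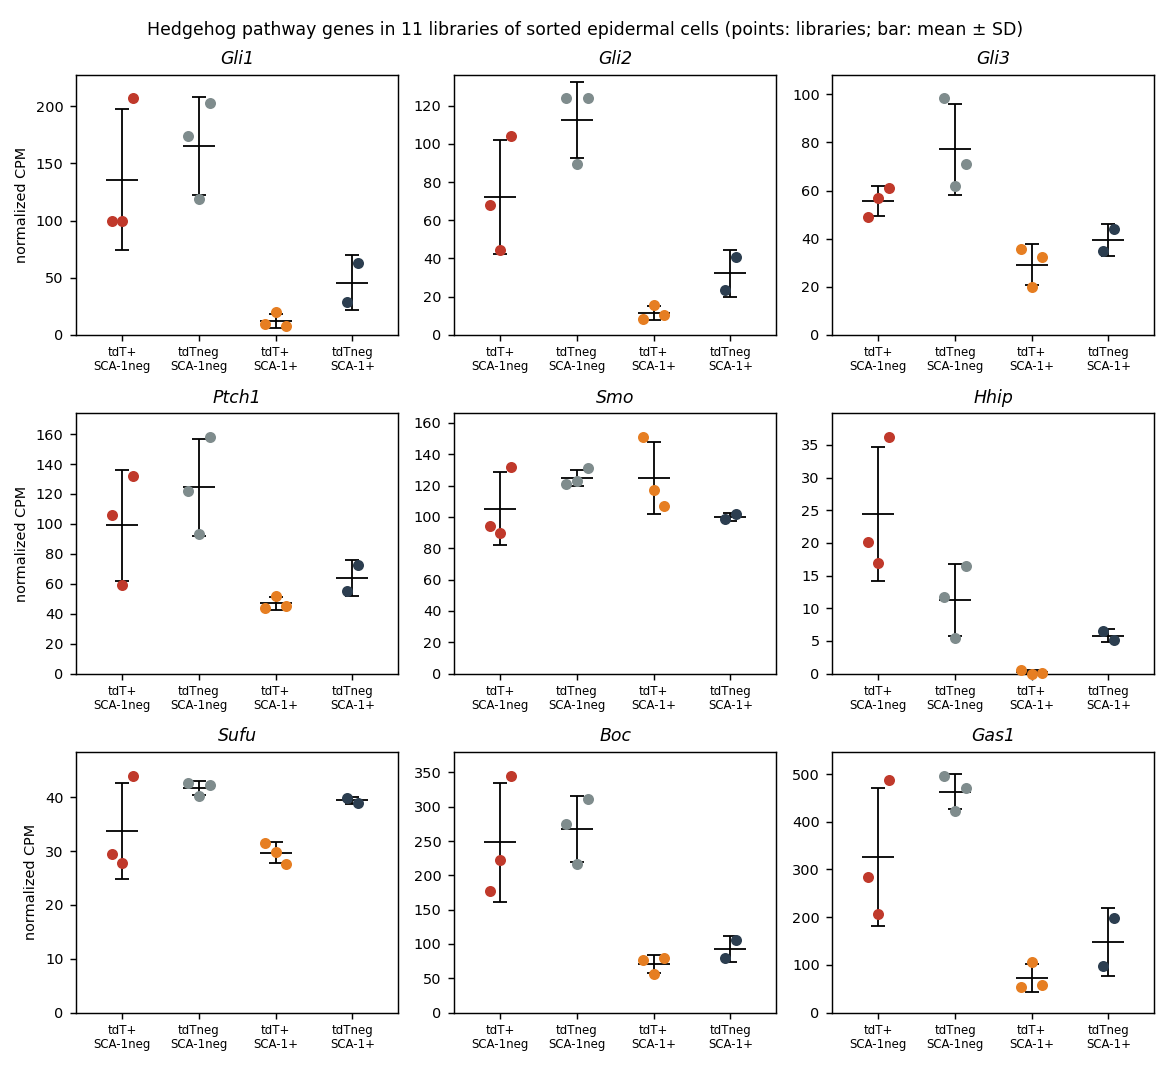
Normalized CPM (vertical axes, each from 0) of the 9 genes in the 4 groups, with 1 point per library and the mean ± SD of the 2 or 3 libraries of a group. *Gli1*, *Gli2*, *Gas1* and *Boc* are lower in all 5 SCA-1+ than in all 6 SCA-1neg libraries, *Smo* and *Sufu* overlap, and *Hhip* is at or below 0.613 CPM in the tdT+ SCA-1+ libraries.

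Levels were compared between genes as CPM per kilobase of exon. In tdTneg SCA-1neg cells *Gas1* was the most abundant, at 156 ± 12.6 (SD, n = 3), followed by *Boc* at 60.1 ± 10.7, *Gli1* at 33.1 ± 8.5, *Smo* at 22.3 ± 0.958, *Gli2* at 16.4 ± 2.92, *Ptch1* at 8.79 ± 2.31, *Gli3* at 8.05 ± 1.97, *Sufu* at 5.43 ± 0.177 and *Hhip* at 1.24 ± 0.605. In this order the ranges over libraries overlapped between *Ptch1* and *Gli3* and were apart between all other neighbours. In tdT+ SCA-1+ cells the order began with *Gas1* at 24.4 ± 9.7 (SD, n = 3), *Smo* at 22.3 ± 4.1 and *Boc* at 15.9 ± 2.91. Of these the ranges of *Gas1* and *Smo* overlapped and those of *Smo* and *Boc* did not. *Sufu*, *Ptch1*, *Gli3*, *Gli1* and *Gli2* came next, between 3.86 ± 0.251 and 1.67 ± 0.558, each neighbour overlapping the one before it, and *Hhip* was last at 0.0244 ± 0.0375. *Gli1* thus stood behind 2 of the other genes in tdTneg SCA-1neg cells and behind 6 in tdT+ SCA-1+ cells.

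Within tdT+ cells the same comparison gave 6 genes lower in SCA-1+ cells, *Gli1*, *Gli2*, *Gas1*, *Boc*, *Ptch1* and *Hhip*, where 5.54% of all genes were called lower and 8.45% in either direction. *Gli1* fell by 3.47 (standard error 0.48, edgeR adjusted p = 0.00188) and *Gli2* by 2.66 (standard error 0.37, edgeR adjusted p = 0.00192) on the log2 scale. *Gas1* fell by 2.18 (edgeR adjusted p = 0.00663), *Boc* by 1.81 (edgeR adjusted p = 0.0025) and *Ptch1* by 1.08 (edgeR adjusted p = 0.0354). *Smo* had a log2 fold change of 0.25 (edgeR adjusted p = 0.371) and *Sufu* of -0.19 (edgeR adjusted p = 0.521), and neither was called. The group means of *Gli1* were 136 ± 61.8 and 12.3 ± 6.37 CPM (SD, n = 3 each), which is an 11.1-fold difference, and 12.5-fold with 154 ± 75.8 CPM (SD, n = 2) when the library that goes against its label is left out. *Hhip* had group means of 24.4 ± 10.3 and 0.221 ± 0.34 CPM (SD, n = 3 each), the first at 28.1 ± 11.3 (SD, n = 2) without that library, and its fitted log2 fold change was -6.56 (standard error 1.02, edgeR adjusted p = 0.00334). The 3 libraries of each group did not overlap in 7 of the 9 genes, the 6 called and *Gli3*, against 30.4% of all genes, and in the same 7 without that library, against 38.7%. In this comparison 6 of 7 T cell markers were called higher (median log2 fold change 3.56) and 6 of 7 bulge markers lower (median -3.45), and their part in the values was not tested.

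Without the library labelled tdT+ SCA-1neg replicate 2 all 6 of these genes were called, and *Gli1* then fell by 3.65, *Gli2* by 2.91, *Gas1* by 2.42, *Boc* by 1.89, *Ptch1* by 1.35 and *Hhip* by 6.78. The call of *Ptch1* was lost in 8 of the 11 fits that left out 1 library, with adjusted p between 0.0516 and 0.101 in edgeR. These were the fits without tdT+CD49f+CD34+ replicates 1 and 3, tdTnegCD49f+CD34+ replicate 1 and each of the 5 SCA-1+ libraries, with log2 fold changes between -1.18 and -0.82. *Gli3* stood at -0.93 within tdT+ cells (edgeR adjusted p = 0.0355), under the fold threshold, at -0.91 (edgeR adjusted p = 0.0757) without the library that goes against its label, and was called without tdT+CD49f+CD34+SCA-1+ replicate 1 (-1.10, edgeR adjusted p = 0.0417). Only *Hhip* was called with the 32-week libraries alone, where 0.814% of all genes were.

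Within tdTneg cells 2 genes were lower in SCA-1+ cells, *Gli2* and *Boc*, where 1.45% of all genes were called lower and 4.74% in either direction. *Gli2* fell by 1.81 on the log2 scale (standard error 0.41, edgeR adjusted p = 0.0333), from 113 ± 20.1 (SD, n = 3) to 32.2 ± 12.6 CPM (SD, n = 2). *Boc* fell by 1.53 (standard error 0.30, edgeR adjusted p = 0.0206), from 267 ± 47.7 to 92.4 ± 18.6 CPM. *Gli1* had a log2 fold change of -1.86 (95% confidence interval -3.01 to -0.71, edgeR adjusted p = 0.0671) and *Gas1* of -1.65 (-2.63 to -0.66, edgeR adjusted p = 0.0592), and neither was called. *Ptch1* stood at -0.97 (edgeR adjusted p = 0.118) and *Hhip* at -0.94 (-2.96 to 1.07, edgeR adjusted p = 0.603). The libraries of the 2 groups did not overlap in 8 of the 9 genes, all but *Hhip*, where 46.3% of all genes did not overlap. In this comparison 6 of 7 T cell and 3 of 4 Langerhans cell markers were called higher and 5 of 7 bulge markers lower in SCA-1+ cells. All 6 endothelial markers were higher without overlap, with a median log2 fold change of 4.86, and 1 of them, *Egfl7*, was called. The part of these cells in the values was not tested.

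DESeq2 called 4 genes in this comparison, *Gli1* and *Gas1* besides *Gli2* and *Boc*, against 12.9% of the genes it tested in either direction. The count in edgeR, 2 with all libraries, was 0 without tdTnegCD49f+CD34+ replicate 1 or 3 or either tdTnegCD49f+CD34+SCA-1+ library and with the 32-week libraries alone, 1 without tdT+CD49f+CD34+SCA-1+ replicate 3 (*Boc*), 3 without the library labelled tdT+ SCA-1neg replicate 2 (*Gas1* added) and 4 without tdT+CD49f+CD34+ replicate 3 or tdT+CD49f+CD34+SCA-1+ replicate 2. The share of all genes called in these fits without 1 library ran from 0.231% to 6.39%, and it was 0 at 32 weeks. With the replicate number as a block it was 1, *Boc*, since *Gli2* had an edgeR adjusted p of 0.059.

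The comparison of tdT+ with tdTneg cells asks whether marking by *CD4Cre* goes with the level of the pathway genes. Among SCA-1neg cells 0 of the 9 genes were called by edgeR, where 0.00985% of all genes were called, and 0 of the 9 had an unadjusted p under 0.05, where 8.42% of all genes did. DESeq2 also called 0 of the 9, against 1.99% of the genes it tested. The log2 fold change of tdT+ over tdTneg was -0.28 for *Gli1* (95% confidence interval -1.25 to 0.68), -0.64 for *Gli2* (-1.41 to 0.13), -0.33 for *Ptch1* (-0.96 to 0.30), -0.50 for *Gas1* (-1.33 to 0.33) and -0.11 for *Boc* (-0.68 to 0.47). *Smo* stood at -0.25 (-0.64 to 0.14), *Sufu* at -0.31 (-0.70 to 0.09) and *Gli3* at -0.47 (-1.01 to 0.07). For *Gli1*, *Gli2*, *Gli3*, *Gas1* and *Hhip* the interval reaches past the fold threshold and does not leave out a change of that size.

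*Hhip* was the 1 gene with a positive value, a log2 fold change of 1.12 (95% confidence interval -0.64 to 2.89, edgeR adjusted p = 0.744). Its 3 tdT+ libraries, from 17 to 36.2 CPM, were all above its 3 tdTneg libraries, from 5.47 to 16.4 CPM. *Gli3* was the other gene whose groups did not overlap, with the tdT+ libraries lower, and 16% of all genes did not overlap. Without the library labelled tdT+ SCA-1neg replicate 2 the count remained 0, and the log2 fold changes were -0.11 for *Gli1*, -0.39 for *Gli2*, -0.26 for *Gas1* and 1.32 for *Hhip*. Those of *Gli3*, *Ptch1*, *Smo*, *Sufu* and *Boc* were then -0.49, -0.07, -0.15, -0.19 and -0.04, and *Hhip* and *Gli3* did not overlap, against 26.2% of all genes. With all libraries, all 7 T cell markers were higher in tdT+ SCA-1neg cells, with a median log2 fold change of 3.28. Medians were 1.82 for the Langerhans cell, 1.58 for the interfollicular and -0.49 for the bulge markers, against -0.03 over all genes. None of these markers was called, and the part of these cells in the values was not tested.

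Among SCA-1+ cells 1 of the 9 genes was lower in tdT+ than in tdTneg cells, *Hhip*, where 2.06% of all genes were called lower. Its log2 fold change was -4.50 (standard error 0.98, edgeR adjusted p = 0.0421), with 0.221 ± 0.34 CPM (SD, n = 3) in tdT+ and 5.84 ± 0.914 CPM (SD, n = 2) in tdTneg libraries. *Gli1* was 3.71-fold lower by group means, at 12.3 ± 6.37 against 45.6 ± 24.3 CPM, with a log2 fold change of -1.90 (95% confidence interval -2.98 to -0.82, edgeR adjusted p = 0.0815). *Gli2* had 11.5 ± 3.83 against 32.2 ± 12.6 CPM and a log2 fold change of -1.49 (-2.35 to -0.64, edgeR adjusted p = 0.0847). Neither passed the threshold in edgeR, although the tdT+ libraries of both genes were all below the tdTneg libraries. DESeq2 called *Hhip*, *Gli1* and *Gli2*, against 6.5% of the genes it tested.

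The remaining genes ranged from a log2 fold change of -1.03 for *Gas1* (edgeR adjusted p = 0.275) to 0.32 for *Smo* (edgeR adjusted p = 0.526), with *Gli3* at -0.43, *Ptch1* at -0.44, *Sufu* at -0.41 and *Boc* at -0.39. Groups did not overlap in 7 of the 9 genes, all but *Gli3* and *Gas1*, and in 33.0% of all genes. The bulge markers moved down with most of these genes, as 4 of 7 were called lower in tdT+ SCA-1+ cells. The T cell markers moved up, and 3 of 7 were called higher. All 6 endothelial markers were lower in the tdT+ libraries, of which 1, *Egfl7*, was called. The part of these cells in the values of *Hhip*, *Gli1* and *Gli2* was not tested.

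The call of *Hhip* was lost without the library labelled tdT+ SCA-1neg replicate 2 (edgeR adjusted p = 0.0559), in 8 fits in all that each left out 1 library, with the 2 groups compared fitted alone (edgeR adjusted p = 0.0632) and with the 32-week libraries alone (edgeR adjusted p = 0.13). The 8 libraries were tdT+CD49f+CD34+ replicates 1 and 2, tdTnegCD49f+CD34+ replicates 1 and 3, tdT+CD49f+CD34+SCA-1+ replicates 2 and 3 and both of tdTnegCD49f+CD34+SCA-1+, and the log2 fold change then lay between -4.69 and -4.08. Without tdT+CD49f+CD34+ replicate 3, *Gli1* (edgeR adjusted p = 0.0453) and *Gli2* (edgeR adjusted p = 0.0433) were called besides *Hhip*, whereas the omission of tdT+CD49f+CD34+SCA-1+ replicate 2 left *Gli1* as the called gene (edgeR adjusted p = 0.0429).

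The effect of tdT was then compared between the populations, as the log2 fold change in SCA-1+ minus that in SCA-1neg cells. In edgeR 0 of the 9 genes passed, where 0.389% of all genes did, and 2 of the 9, *Gli1* and *Hhip*, had an unadjusted p under 0.05, where 12.4% of all genes did. For *Hhip* the difference was -5.62 (95% confidence interval -8.42 to -2.82, edgeR adjusted p = 0.0941), with tdT+ libraries above tdTneg libraries in SCA-1neg and below them in SCA-1+ cells. For *Gli1* it was -1.61 (-3.06 to -0.17, edgeR adjusted p = 0.347), and -1.79 without the library that goes against its label. DESeq2 called *Hhip*, against 4.30% of the genes it tested, and edgeR called it when genes with at least 1 count in any library were kept (edgeR adjusted p = 0.00169) and in the fit that left out tdT+CD49f+CD34+SCA-1+ replicate 1 (-8.67, edgeR adjusted p = 0.0426). The value of *Hhip* without the library labelled tdT+ SCA-1neg replicate 2 was -5.83 (edgeR adjusted p = 0.15). The comparisons share libraries, as each tdT+ SCA-1+ library enters both the comparison between the populations and that between tdT states.

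**Figure D3:**
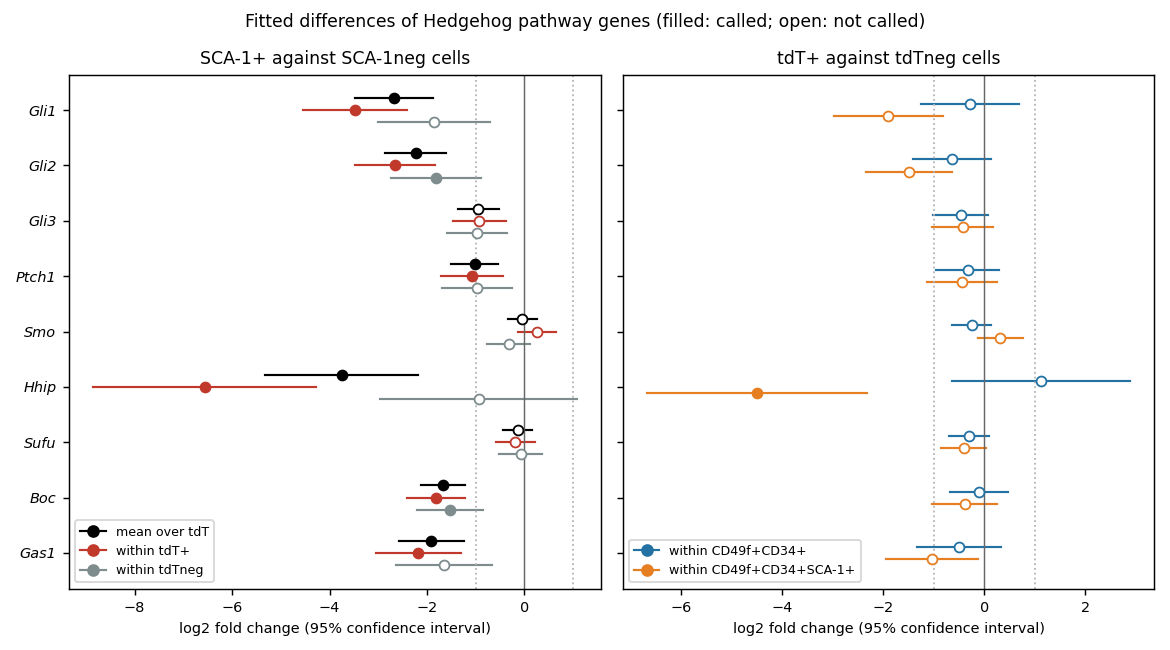
Fitted log2 fold changes (points) with 95% confidence intervals (lines) of the 9 genes, for SCA-1+ against SCA-1neg cells on the left and tdT+ against tdTneg cells on the right, with filled points for called genes and dotted lines at the fold threshold. On the left 6 genes are called for the mean over tdT, 6 within tdT+ and 2 within tdTneg cells, and on the right only *Hhip* in SCA-1+ cells is, at -4.50.

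The other genes of the pathway were taken from a list of 51 genes, of which 50 passed the filter on low counts and *Foxl1* did not. Between the populations, as the mean over tdT, 4 of the 50 were called lower in SCA-1+ cells and 0 higher, against the 6.79% of all genes called lower. The median log2 fold change was -0.42 over the 50 and -0.09 over all genes, and 27 of the 50 had an unadjusted p under 0.05, as did 34.4% of all genes. DESeq2 called 8 of the 50 for the mean over tdT and 7 within tdT+ cells, where it called 16.2% and 15.6% of the genes it tested. The called genes were *Sfrp1*, *Kif7*, *Stk36* and *Hhat*.

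Of the ligands, *Shh* and *Ihh* had low counts in every library. *Shh*, the ligand best known in the hair follicle, ran from 0 to 2.28 CPM over the 11 libraries and *Ihh* from 0 to 2.59 CPM, with neither called in any comparison. *Dhh* ran from 0.165 to 2.57 CPM in 9 libraries and stood at 8.99 and 12.6 CPM in the 2 tdTneg SCA-1+ libraries. Within tdTneg cells *Dhh* was higher in SCA-1+ cells, by 3.74 on the log2 scale (standard error 0.92, edgeR adjusted p = 0.0428). These are the 2 libraries in which the endothelial markers summed to 1676 and 1789 CPM, and endothelial cells are known to express *Dhh*. The part of endothelial cells in this value was not tested. The call was lost in 8 fits that each left out 1 library, namely tdT+CD49f+CD34+ replicate 1, any of the 3 tdTnegCD49f+CD34+, tdT+CD49f+CD34+SCA-1+ replicate 1 or 3 or either tdTnegCD49f+CD34+SCA-1+ library, with log2 fold changes between 3.48 and 4.07, and with the replicate number as a block (3.40, edgeR adjusted p = 0.0577).

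*Hhat*, which encodes the enzyme that attaches palmitate to Hedgehog ligands, was the 1 of 6 genes of ligand processing and release that was called between the populations. It ran from 5.89 to 7.73 CPM in SCA-1neg and from 2.16 to 6.12 CPM in SCA-1+ libraries, so that the fitted log2 difference was -1.02 (standard error 0.30, edgeR adjusted p = 0.0409). The populations overlapped through tdTneg SCA-1+ replicate 2. The call was lost in 9 of the 11 fits without 1 library, all but those without tdT+CD49f+CD34+SCA-1+ replicate 1 or tdTnegCD49f+CD34+SCA-1+ replicate 2, with log2 fold changes from -1.06 to -0.75, and with the replicate number as a block (-1.04, edgeR adjusted p = 0.0628). Among 3 further receptors and co-receptors none was called, and all 3 had negative values.

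*Kif7* and *Stk36* were the 2 called of 13 genes of GLI processing. *Kif7* encodes a kinesin of the cilium tip that acts on the GLI factors, and *Stk36* a kinase related to the Fused protein of the fly pathway. *Kif7* ran from 14.5 to 31.3 CPM in SCA-1neg and from 4.43 to 11.5 CPM in SCA-1+ libraries, without overlap (log2 fold change -1.38, standard error 0.30, edgeR adjusted p = 0.0119). *Stk36* was less abundant, from 2.41 to 5.18 CPM and from 1.23 to 2.16 CPM, again without overlap (-1.34, standard error 0.32, edgeR adjusted p = 0.0185). Both calls were lost without tdTnegCD49f+CD34+SCA-1+ replicate 1 (-1.29 and -1.38), and that of *Stk36* also without replicate 2 of that group (-1.27). Of 8 genes grouped with *Smo* and its regulators none was called.

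All 8 genes of cilium transport had negative log2 fold changes in SCA-1+ cells. None of them was called, 7 had an unadjusted p under 0.05, as did 34.4% of all genes, and their median was -0.62, against -0.09 over all genes. Within tdT+ and within tdTneg cells all 8 were also negative, with medians of -0.68 and -0.59, against -0.07 and -0.13 over all genes, and 0 called. They encode intraflagellar transport proteins and other parts of the primary cilium, the organelle in which the pathway signals.

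Of 9 other known targets that passed the filter, *Sfrp1* was called in the most comparisons. It encodes a secreted inhibitor of WNT ligands. It ran from 519 to 780 CPM in tdT+ and from 1494 to 1906 CPM in tdTneg SCA-1neg libraries, from 66.5 to 112 CPM in tdT+ SCA-1+ libraries and stood at 212 and 470 CPM in tdTneg SCA-1+ libraries. *Sfrp1* fell in SCA-1+ cells by 2.53 as the mean over tdT (edgeR adjusted p = 0.000286), by 2.76 within tdT+ and by 2.31 within tdTneg cells on the log2 scale. It was also lower in tdT+ than in tdTneg cells of the SCA-1+ population, with a log2 fold change of -1.82 (edgeR adjusted p = 0.0236), and stood at -1.38 in SCA-1neg cells (edgeR adjusted p = 0.229). *Foxm1*, a regulator of mitotic genes, was higher in SCA-1+ cells within tdT+ cells, by 1.03 (edgeR adjusted p = 0.0248), and stood at 0.96 for the mean over tdT, under the fold threshold. The call of *Sfrp1* within tdTneg cells was lost without tdTnegCD49f+CD34+SCA-1+ replicate 1 (-1.86), and that between tdT states without tdT+CD49f+CD34+SCA-1+ replicate 1 (-1.94) or 3 (-1.62) or tdTnegCD49f+CD34+SCA-1+ replicate 2 (-1.18) and with the replicate number as a block (-1.74, edgeR adjusted p = 0.053). The call of *Foxm1* was lost without tdT+CD49f+CD34+ replicate 1 (0.98) or 3 (0.96) or tdT+CD49f+CD34+SCA-1+ replicate 1 (1.03) or 2 (0.84), and on the fold threshold with DESeq2, RLE size factors or another filter. Within tdT+ cells *Sfrp1* and *Foxm1* were the called genes of the 50, within tdTneg cells *Sfrp1* and *Dhh*, and between tdT states in SCA-1+ cells *Sfrp1*, where 8.45%, 4.74% and 2.31% of all genes were called in either direction. None was called in the 2 remaining comparisons, with 4 and 6 of the 50 at an unadjusted p under 0.05 in edgeR, where 8.42% and 12.4% of all genes were, and 1 and 3 called by DESeq2, where 1.99% and 4.30% of the genes it tested were. With the replicate number as a block, *Kif7* (log2 fold change -1.34, edgeR adjusted p = 0.024) and *Disp2* (-7.68, edgeR adjusted p = 0.012), a gene of ligand release, were also called lower within tdT+ cells, and *Disp2* in place of *Sfrp1* between tdT states in SCA-1+ cells (-10.30, edgeR adjusted p = 0.0141). *Disp2* had 0 counts in the 3 tdT+ SCA-1+ libraries and 128 and 338 in the tdTneg SCA-1+ libraries, and was not called without the block. Against libraries at 0 its fitted fold changes depend on the prior count.

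**Figure D4:**
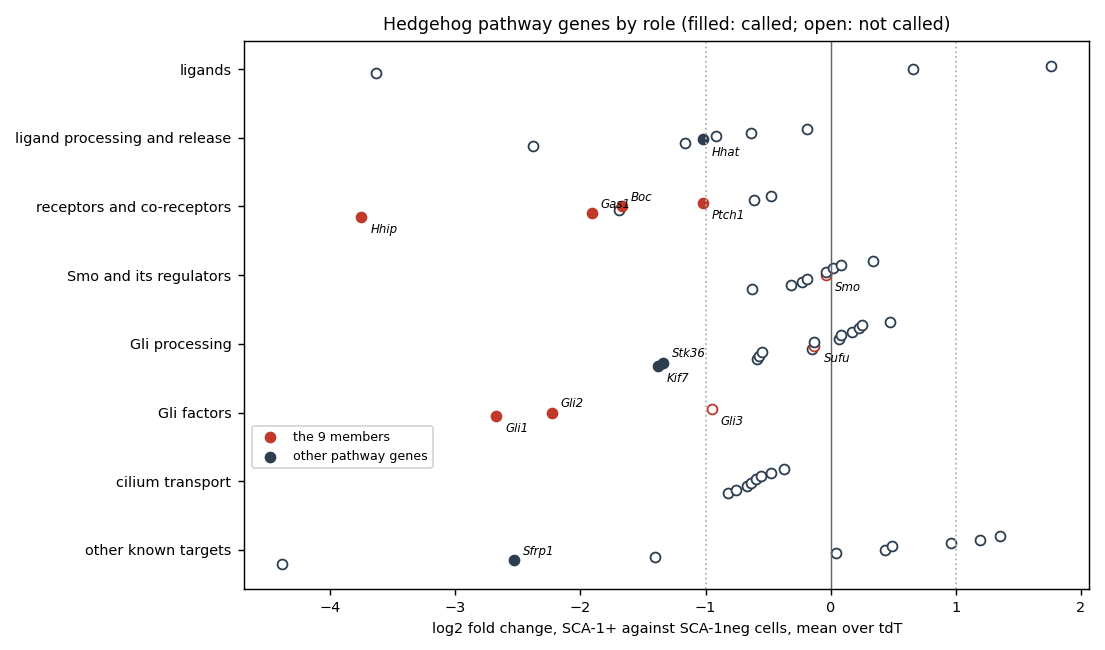
Log2 fold change of SCA-1+ against SCA-1neg cells as the mean over tdT (horizontal axis) for the 9 genes and the 50 further pathway genes that passed the filter, in rows by role, with filled points for called genes and dotted lines at the fold threshold. Called members stand among the receptors, co-receptors and GLI factors, and 4 further genes, *Sfrp1*, *Kif7*, *Stk36* and *Hhat*, are called.

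The genes whose pattern over the 11 libraries was most like that of *Gli1* were found by the mean absolute difference of log2 CPM, after each gene was centred on its own mean. They were *Fam171b* (0.18), *Rflnb* (0.20), *Pi15* (0.20), *Cyp2b27-ps* (0.23) and *Ednra* (0.27), against a median of 1.53 over 20306 genes. By the same measure *Gli2* came to 0.30 and ranked 16, *Gas1* to 0.46 and rank 103, and *Boc* to 0.71 and rank 428. *Ptch1* and *Gli3* came to 0.98 with ranks 1237 and 1259, *Hhip* to 1.26, *Sufu* to 1.36 and *Smo* to 1.49. All genes share the group structure of the libraries, the libraries differ in depth, and no test goes with this measure.

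Exons of some genes overlap those of genes on the opposite strand. *Gli1* shares 265 bases with *Gm47200* and 62 with *Arhgap9*, *Gas1* 589 with *Gm48488*, *Gli3* 188 with *Gm6556* and *Hhip* 175 with *Gm27820*. The library kit does not mark strand, so reads from these bases cannot be told apart between the partners.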

How the data were processed

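Dorsal epidermal cells were isolated with thermolysin and sorted, and TruSeq v2 libraries of their RNA were sequenced. The authors aligned reads to mm10 with STAR and counted them on Ensembl release 96 genes with featureCounts, and the deposited counts are whole numbers without normalization. The submitters' processing notes also name bcl2fastq 2.20.0.422, FastQC and DESeq2 1.18.1. The strand setting of the counting is not given in the sources used here. Groups and replicate numbers come from the labels. The study's methods count 3 biological replicates of 2 mice for the 4 sorted populations, and libraries with one number have one age in the labels. The supplement describes each numbered replicate as isolates of one such pair, so that libraries with one number were taken to share mice. Deviations from the group means correlated with a median of 0.08 (-0.42 to 0.59) over 15 pairs of libraries with one number and of -0.02 (-0.60 to 0.51) over 30 other pairs, and 7 of 11 libraries correlated best with a library of their own number. Tests are without a block, and the value with the replicate number as a block stands beside each result whose call it changes.

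All 11 libraries were fitted together in edgeR 4.0.16 (R 4.3.3) with 1 mean per group, TMM normalization, filterByExpr and the quasi-likelihood F-test, over 20307 genes, with p-values adjusted by Benjamini-Hochberg. Totals ran from 17409131 to 46542177 counts, and the common biological coefficient of variation was 0.608. DESeq2 1.42.0, RLE size factors, other filters, no fold threshold, a replicate block, the compared groups alone, the 32-week libraries alone and the omission of each library were alternatives. Where this leaves 1 library in a group, that library is assumed to vary like the others. The fit of the mean over tdT was tried on simulated counts in which 200 genes were changed, and 79.5% of these were called. The counts were drawn independently between libraries, with means and spread taken from these data. No other comparison was tried in this way. Normalized CPM are counts per 1000000 of the TMM-scaled total, and CPM per kilobase use the union of exons. P-values measure the spread between pools of 2 mice and treat the libraries as independent. Where libraries with the same replicate number share mice, that independence does not hold between groups.

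The 9 genes, the pathway list and the marker lists were chosen with earlier results of these data known. Named are the 9 genes, the 3 ligands, list genes called in a comparison and the 5 genes most like *Gli1*. The marker genes named, *Foxl1*, *Disp2* and the genes that overlap a member were named outside this rule, after their values were seen. Totals and tests leave out the row that is no Ensembl gene. Promoter windows are those of RefSeq on GRCm38.p6. Figures were drawn with matplotlib 3.10.9 in Python 3.11.15.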

Additional observations from a re-analysis of the deposited data

Results flagged for a closer look

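*Hhip* was flagged because its libraries separated in opposite directions. In SCA-1neg cells all 3 tdT+ libraries were above all 3 tdTneg libraries, and in SCA-1+ cells all 3 tdT+ libraries were below both tdTneg libraries. The effect of tdT in SCA-1+ cells minus that in SCA-1neg cells was -5.62 on the log2 scale (edgeR adjusted p = 0.0941), which did not pass the threshold in edgeR. It did not pass without the library that goes against its label either.

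The row outside the Ensembl genes, which no comparison used, had a median of 238 CPM over the 6 tdT+ libraries and 3.78 CPM over the 5 tdTneg libraries. It was the library labelled tdT+CD49f+CD34+ replicate 2 that stood at 2.05 CPM.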

How the results depend on the processing

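The count of called members changed by over 1.5 times under these settings. With the 32-week libraries alone it was 2 for the mean over tdT, 1 within tdT+ cells, and 0 within tdTneg cells and between tdT states in SCA-1+ cells, where 1.37%, 0.814%, 0% and 0% of all genes were called in either direction. With DESeq2 it was 4 within tdTneg cells, 3 between tdT states in SCA-1+ cells and 1 for the difference between populations (12.9%, 6.5% and 4.3% of all genes it tested). With genes of at least 1 count in any library these were 4, 3 and 1 (3.41%, 2.14% and 1.38% of all genes), and with at least 10 counts in every library, which removes *Hhip*, 4 within tdTneg cells (9.24%) and 2 between tdT states in SCA-1+ cells (4.41%). With only the groups compared, the count between tdT states in SCA-1+ cells was 0 (5.09%). Over the fits without 1 library, the count ran from 5 to 7 for the mean over tdT, from 5 to 6 within tdT+ cells, from 0 to 4 within tdTneg cells, from 0 to 3 between tdT states in SCA-1+ cells and from 0 to 1 for the difference, and was 0 throughout between tdT states in SCA-1neg cells. The share of all genes called ran there from 4.86% to 12.3%, 5.72% to 11.3%, 0.231% to 6.39%, 0.397% to 3.44%, 0.00409% to 1.85% and 0% to 0.0349%, in the same order. Of the 50 further pathway genes, DESeq2 called 8 for the mean over tdT, 7 within tdT+ cells, 5 within tdTneg cells and 5 between tdT states in SCA-1+ cells, against 4, 2, 2 and 1 in edgeR, where DESeq2 called 16.2%, 15.6%, 12.9% and 6.5% of all genes it tested, and for the mean over tdT 16 were called without a fold threshold (19.3% of all genes) and 1 at 32 weeks (1.37%). The cause of these shifts was not tested.

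The replicate number used as a block gave 5 members for the mean over tdT, 6 within tdT+ cells, 1 within tdTneg cells, 1 between tdT states in SCA-1+ cells and 0 in both other comparisons, where 11.1%, 8.39%, 3.99%, 1.99%, and 0.0197% (tdT states in SCA-1neg cells) and 0.379% (difference) of all genes were called. The block removed the calls of *Ptch1* for the mean over tdT and of *Gli2* within tdTneg cells, and it changed no other call of a member.

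No value that changed sign was called in any of these fits, and the fitted values ranged from -0.53 for *Gas1* to 0.04 for *Gli3*, both for the difference between populations. Without 1 library the log2 fold change of *Smo* for the mean over tdT ran from -0.12 to 0.06, that of *Sufu* within tdT+ cells from -0.31 to 0.05 and that of *Boc* between tdT states in SCA-1neg cells from -0.42 to 0.08, the last at 0.10 with the 32-week libraries alone. *Sufu* within tdTneg cells was at 0.00 with DESeq2, RLE size factors and at least 10 counts in every library. For the difference between populations, the values without 1 library ran from -0.17 to 0.19 for *Gli3*, -0.38 to 0.15 for *Ptch1*, -0.23 to 0.13 for *Sufu*, -0.47 to 0.03 for *Boc* and -0.98 to 0.04 for *Gas1*. *Gli3* was there at -0.08 with DESeq2 and with RLE size factors, -0.03 with at least 1 count, -0.11 with at least 10 counts, -0.05 with the block and -0.59 at 32 weeks.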
